A study of Mus musculus with 6 samples.

Results

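The genes described here are the semaphorins, the plexins and neuropilins that receive them, the ephrins and the Eph receptors, families of guidance cues and their receptors. They were chosen by symbol alone: a probe set, the group of probes that reads 1 transcript on an Affymetrix array, was kept if its annotation gave a single symbol of one of these families, and where a gene had several, the brightest by its mean over the 6 arrays stood for it. This gave 53 of the 22180 genes with a single-symbol probe set: 20 semaphorins, 9 plexins, 2 neuropilins, 8 ephrins, 13 Eph receptors and Plxna4os1, an RNA antisense to Plxna4 that the symbol rule also takes. Ephb2 had no single-symbol probe set and was not analysed here.

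All 6 arrays came from MC3T3-E1, an established line of pre-osteoblasts from mouse calvaria, grown to confluence and then kept until day 14 in osteogenic medium, whose additions were ascorbic acid at 50 µg/ml and β-glycerophosphate at 10 mM. In 3 samples the medium held 1 µM NU7441, an inhibitor of DNA-PKcs, the catalytic subunit of the DNA-dependent protein kinase, and in the other 3 its solvent DMSO. The comparison bears on a series about DNA-PKcs, the coregulator alphaNAC that it phosphorylates and the formation of osteoblasts. The labels number the samples 1 to 3 in each group and do not state that these were cultures of their own, so a p-value here speaks of the spread among these 6 samples, possibly a technical one. On the log2 scale the median signal of an array was 6.38 to 6.42, and the correlations between arrays ran from 0.9887 to 0.993.

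Semaphorins are secreted or membrane-bound ligands whose receptors, the plexins, act on small GTPases and the cytoskeleton, and secreted class 3 semaphorins mostly need a neuropilin as the binding partner of a plexin. Ephrins are ligands tethered to the cell surface, and their contact with Eph receptor tyrosine kinases on a neighbouring cell signals into both cells. In bone, Sema3a is known as a cue that favours osteoblasts over osteoclasts, Sema4d from osteoclasts acts on Plxnb1 of osteoblasts to restrain bone formation, and ephrin-B2 on osteoclasts and EphB4 on osteoblasts form a bidirectional pair.

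None of the 53 genes passed the test of NU7441 against DMSO. limma called 0 of 53 at an adjusted p under 0.05, as it called 0.0% of all 22180 genes, and the members' adjusted p ran from 0.698 for Plxnb1 to 0.986 for Sema7a. At an unadjusted p under 0.05 there were 3 members, Plxnb1 and Efnb1 higher and Sema6b lower, or 5.66%, against 6.79% of all genes, so the share is near the background. A difference is the log2 mean of NU7441 less that of DMSO, and its standard error (SE) is the moderated one of limma. They ran from -0.32 for Epha3 to 0.58 for Sema6a, and 31 of the 53 were smaller than 0.10 in size. Ephb1, with an unadjusted p of 0.0512, and Epha2, with 0.0540, lay just outside that threshold, while Efnb1, with 0.0448, and Sema6b, with 0.0424, lay just inside.

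More members stood higher than lower with NU7441. The difference was above 0 in 36 of 53, or 67.9%, against 51.3% of all genes, and the members' median was 0.06 against 0.00. By family, 11 of 20 semaphorins, 6 of 9 plexins, 1 of 2 neuropilins, 7 of 8 ephrins and 10 of 13 Eph receptors were higher. The 3 values of one group lay wholly above those of the other in 8 members higher with NU7441, where 6.13% of all genes do so, and in 2 members lower with NU7441, where 6.64% of all genes do so. The 8 were Plxnb1, Plxnb3, Sema4g, Sema5b, Efna4, Efnb1, Epha2 and Ephb1, and the 2 were Sema6b and Epha4. Without DMSO 2 the members higher with NU7441 were 30 of 53, or 56.6%, against 51.2% of all genes. With each array centred on its median the members higher were 34 of 53, or 64.2%, while the share of all genes fell to 43.6%.

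**Figure D1:**
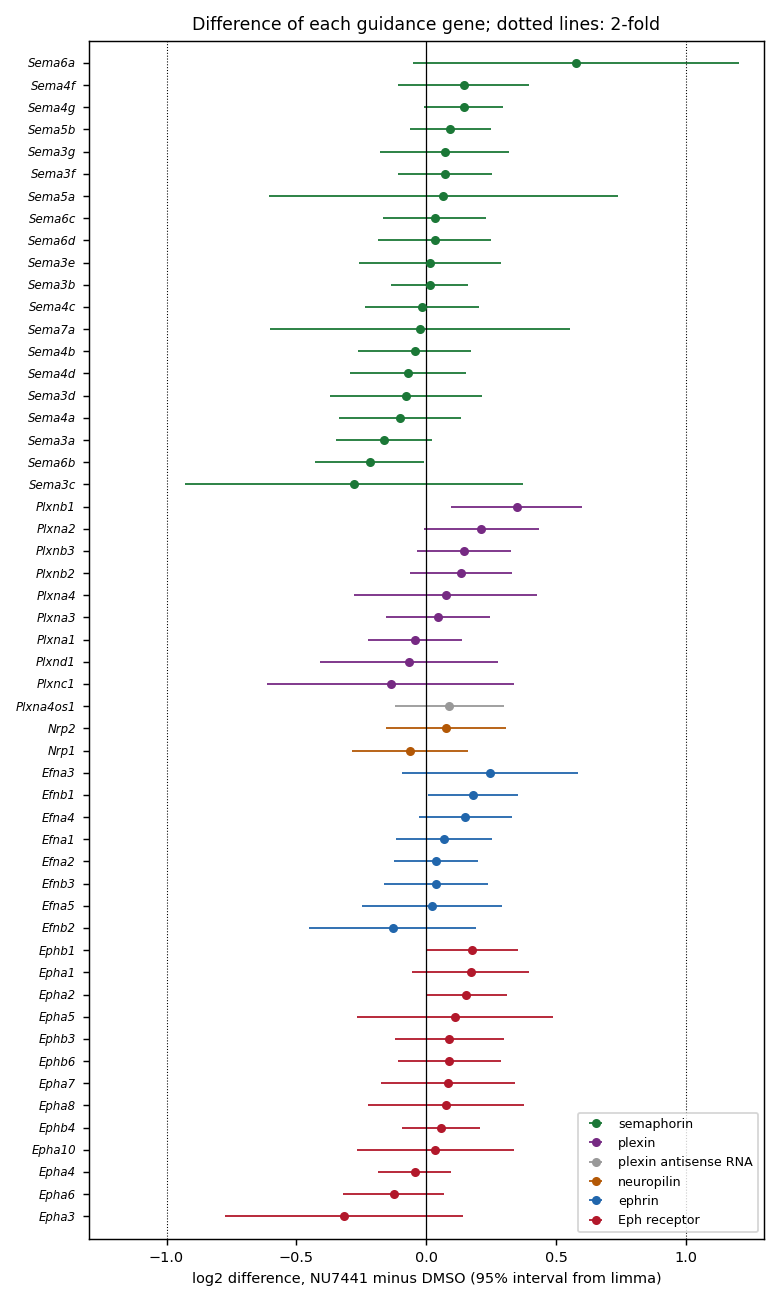
Log2 difference of each of the 53 genes, NU7441 minus DMSO (points), with its 95% interval from limma (bars), ordered by family, with dotted lines at a 2-fold change. All intervals but that of Sema6a lie inside a 2-fold change, and those of Plxnb1, Efnb1 and Sema6b leave out 0 before any adjustment.

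Most of these differences were bounded, given the spread among these 6 samples, which may be a technical one. The 95% interval lay within a 2-fold change for 52 of 53 members, as for 99.2% of all genes, the exception being Sema6a with an interval from -0.05 to 1.20. In signal, 18 members had a mean above the upper quartile of all genes, among them Plxna1, Plxnb2, Nrp2 and Efnb1. Another 5 lay below the lower quartile: Sema3d, Sema3e, Sema4g, Epha5 and Epha6. Background levels of the arrays were not used here. For these dim probe sets an interval therefore bounds the signal and may not bound the transcript.

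The cells carried the marks of osteoblasts. Of 10 measured osteoblast markers 9, all but Bglap, had a mean above the upper quartile, among them Ibsp, bone sialoprotein, and Col1a1, the main bone collagen. Runx2 and Spp1 were listed but not measured. None of 10 endothelial and none of 8 neuron or glia markers had a mean above the upper quartile. Of 10 macrophage and osteoclast markers 1 did so, the protease gene Ctsk. The osteoblast markers' mean was 9.81, 10.01 and 10.68 in DMSO 1 to 3 and 10.38, 10.54 and 11.17 in NU7441 1 to 3, with all 10 markers higher with NU7441 by a median of 0.54 and 0 called by limma. The markers' differences ran from 0.04 for each of Col1a1 and Col1a2 to 0.97 for Phex. Between arrays of the same number all 10 were higher in each of the 3 pairs. With the replicate number as a block limma again called 0, and with the block, an intensity trend and a robust prior it called 6, Alpl, Ibsp, Sp7, Pth1r, Phex and Ifitm5, at adjusted p-values from 0.00262 to 0.0172, where 0.451% of all genes were called. In whole-cell RNA of a culture, more cells of a kind and more RNA per cell cannot be told apart, and the part of this marker difference in the members' values was not tested.

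Promoter windows were found in RefSeq (GRCm38.p6) for 46 of the 53 genes, and the 250 bases before the start of transcription were searched on both strands. Most held a GC box, GGGCGG, the recognition sequence of Sp1-type factors: 37 of 46 genes, or 80.4%, had it in at least 1 window, against 48.2% of 15378 protein-coding genes of the array with a window. Taking for each gene its window richest in G and C, the median G and C content was 65.0% in the members and 57.2% in those genes. The letters of the TATA box, TATAAA, were found in 1 of 46, Efnb2, against 13.3%. In Efnb2 they lie on the strand opposite to the gene and so read TTTATA in its window. The element of AP-1, TGANTCA, stood in 3 of 46, Sema4c, Sema4d and Sema6b, or 6.52% against 7.28%, and the cAMP response element, TGACGTCA, in 1 of 46, Epha2, or 2.17% against 2.30%. The first 3 windows below are of the members with an unadjusted p under 0.05 and the fourth is of the only member with a TATAAA match. They run 5′ to 3′ on the strand of the gene, with GC boxes and TATAAA matches of either strand in capitals.
Plxnb1, chr9:109095186-109095435, plus strand: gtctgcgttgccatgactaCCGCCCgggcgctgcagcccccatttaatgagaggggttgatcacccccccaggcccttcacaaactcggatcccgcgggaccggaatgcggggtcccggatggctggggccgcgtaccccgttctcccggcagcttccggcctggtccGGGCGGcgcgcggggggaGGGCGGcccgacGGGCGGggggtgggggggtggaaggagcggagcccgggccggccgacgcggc
Efnb1, chrX:99135811-99136060, plus strand: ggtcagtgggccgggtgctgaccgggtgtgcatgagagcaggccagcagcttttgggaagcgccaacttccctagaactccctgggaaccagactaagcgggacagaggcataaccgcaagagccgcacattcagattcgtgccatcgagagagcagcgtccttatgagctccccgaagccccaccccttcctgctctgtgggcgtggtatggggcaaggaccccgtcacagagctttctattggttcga
Sema6b, chr17:56140344-56140593, minus strand: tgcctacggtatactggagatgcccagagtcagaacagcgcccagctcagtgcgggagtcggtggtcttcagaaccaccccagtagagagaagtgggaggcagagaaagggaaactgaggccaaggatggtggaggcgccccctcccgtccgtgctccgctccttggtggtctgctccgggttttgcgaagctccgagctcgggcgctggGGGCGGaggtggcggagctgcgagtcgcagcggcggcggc
Efnb2, chr8:8661243-8661492, minus strand: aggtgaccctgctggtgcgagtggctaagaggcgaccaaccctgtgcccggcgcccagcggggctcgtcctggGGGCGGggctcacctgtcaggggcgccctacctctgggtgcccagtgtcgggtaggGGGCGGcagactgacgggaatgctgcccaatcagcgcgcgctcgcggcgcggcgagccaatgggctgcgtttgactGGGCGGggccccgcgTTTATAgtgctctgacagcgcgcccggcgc
The Plxnb1 window held 4 GC boxes, that of Efnb2 held 3, that of Sema6b held 1 and that of Efnb1 held 0. The Efnb2 window also held the 1 TATAAA match, on the opposite strand. Sema6b had 2 windows, of which the one farther upstream is printed. The printed one holds no AP-1 element, so the AP-1 match of Sema6b lies in its other window. A match of letters is not a binding site, and factor binding was not measured in these samples.

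Among the secreted class 3 semaphorins no difference passed the test, and Sema3a, which binds Nrp1, came closest. Sema3a was at 9.92, 9.92 and 9.71 in DMSO 1 to 3 and at 9.69, 9.67 and 9.72 in NU7441 1 to 3. DMSO 1 and 2 were high and DMSO 3 lay among the NU7441 values, so the groups overlapped. The difference was -0.16 (SE 0.08, 95% interval -0.35 to 0.02) with an adjusted p of 0.764 in limma. Sema3b, secreted and able to bind both neuropilins, was between 9.27 and 9.36 in all 6 arrays, a difference of 0.01 (SE 0.06). Its 95% interval, -0.14 to 0.16, was among the narrowest of the family. Sema3e, which can bind Plxnd1 without a neuropilin, was dim, at 4.86, 5.09 and 4.98 in DMSO and 4.85, 5.22 and 4.90 in NU7441, a difference of 0.01 (SE 0.12). Sema3c varied more between replicates than between groups, at 8.61, 9.10 and 8.08 in DMSO 1 to 3 and 8.59, 8.46 and 7.90 in NU7441 1 to 3, with replicate 3 the lowest of each group. Its difference was -0.28 (SE 0.28). The other 3 of the class, Sema3d, Sema3f and Sema3g, differed by between -0.08 and 0.07.

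The membrane-bound class 4 semaphorins, ligands mainly of class B plexins, also stayed below the threshold. Sema4d was at 6.60, 6.61 and 6.83 in DMSO 1 to 3 and at 6.48, 6.63 and 6.71 in NU7441 1 to 3, overlapping values with a difference of -0.07 (SE 0.09, 95% interval -0.29 to 0.15). Sema4g, near the lower quartile of signal, was at 5.39, 5.29 and 5.37 in DMSO and 5.54, 5.47 and 5.47 in NU7441. Its groups did not overlap, and its difference was 0.14 (SE 0.06). Sema4f differed by 0.14 (SE 0.11) with overlapping groups, and Sema4a, Sema4b and Sema4c by -0.10, -0.05 and -0.02. Of the 6 genes of the class 2 were higher and 4 lower.

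The transmembrane class 6 semaphorins, which bind class A plexins, held both the largest difference of all members and the smallest p of the semaphorins. Sema6a was at 6.08, 6.41 and 6.92 in DMSO 1 to 3 and at 6.76, 6.83 and 7.54 in NU7441 1 to 3. Within each group replicate 3 was the highest, and DMSO 3 lay above NU7441 1 and 2, so the groups overlapped. The difference was 0.58 (SE 0.27) with an adjusted p of 0.762 in limma. Between arrays of the same number it was 0.69, 0.42 and 0.62. With the replicate number as a block its SE was 0.08 and its unadjusted p 7.52e-04, with an adjusted p of 0.353, and with the block, an intensity trend and a robust prior the adjusted p was 0.0516, the smallest of any member in any setting. That setting called 0.451% of all genes and 0 of the 53 members. Without NU7441 3 the difference of Sema6a was 0.33, and without DMSO 3 it was 0.80.

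The 6 arrays stood in the same order for Sema6a as for the mean of the osteoblast markers, from DMSO 1, DMSO 2, NU7441 1, NU7441 2 and DMSO 3 up to NU7441 3. Of all genes 0.383% have this order, and Sema6a is the 1 member that has it. The order is also that of 4 of the 10 markers, but it was taken from their own mean, which partly fixes this count in advance. This comparison was added after the data were examined. Whether Sema6a and the markers move for the same reason was not tested.

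**Figure D2:**
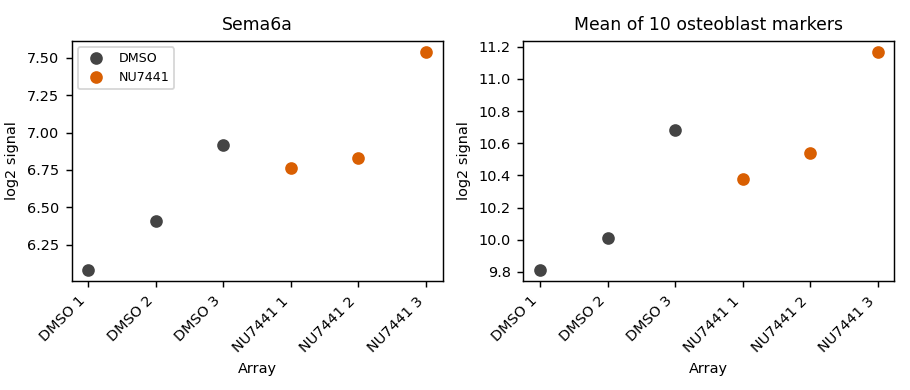
Log2 signal of Sema6a (left) and mean log2 signal of the 10 osteoblast markers (right) in each array, with DMSO in grey and NU7441 in orange. Sema6a runs from 6.08 to 7.54 and the marker mean from 9.81 to 11.17, with DMSO 1 lowest and NU7441 3 highest in each panel.

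Sema6b was at 6.42, 6.45 and 6.61 in DMSO 1 to 3 and at 6.19, 6.41 and 6.23 in NU7441 1 to 3. All NU7441 values lay below the DMSO values, NU7441 2 by a narrow margin. The difference was -0.22 (SE 0.09) with an adjusted p of 0.726 in limma. Sema6c and Sema6d each differed by 0.03.

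Sema5a and Sema7a varied far more within the groups than between them. Sema7a, a lipid-anchored semaphorin that binds Plxnc1 and integrins, was at 9.90, 9.68 and 10.68 in DMSO 1 to 3 and 10.01, 9.92 and 10.25 in NU7441 1 to 3. Its difference was -0.02 (SE 0.25), and without DMSO 3 it was 0.27. Sema5a, a transmembrane semaphorin with thrombospondin repeats, was at 9.31, 8.77 and 9.91 in DMSO and 9.25, 9.20 and 9.74 in NU7441, a difference of 0.06 (SE 0.28). In both genes replicate 3 was the highest of each group. Their 95% intervals, -0.60 to 0.55 and -0.61 to 0.73, are among the widest here. Sema5b differed by 0.09 (SE 0.07), with groups that did not overlap.

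The class B plexins, the receptors of class 4 semaphorins, were higher with NU7441 in every pair of same-numbered arrays by the probe sets kept for them. Plxnb1 was at 6.75, 6.65 and 7.02 in DMSO 1 to 3 and at 7.17, 7.06 and 7.23 in NU7441 1 to 3. Its lowest NU7441 value stood just above its highest DMSO value. The difference was 0.35 (SE 0.11, 95% interval 0.09 to 0.60), with an unadjusted p of 0.0137 and an adjusted p of 0.698 in limma. A second, dimmer probe set of Plxnb1 was at 6.16, 6.18 and 5.95 in DMSO and 6.28, 6.18 and 6.12 in NU7441, a difference of 0.10 (SE 0.09) with overlapping groups. The 2 probe sets of this gene thus gave the same direction of the mean, with values of 0.35 and 0.10, but did not follow each other across arrays. Replicate 3 was the highest of each group in the first and the lowest of each in the second. In the second the arrays numbered 2 were both at 6.18.

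Plxnb2, with signal above the upper quartile, was at 11.44, 11.41 and 11.56 in DMSO 1 to 3 and at 11.55, 11.53 and 11.73 in NU7441 1 to 3. The groups overlapped by DMSO 3, and the difference was 0.13 (SE 0.08). Plxnb3 was at 5.89, 5.73 and 5.94 in DMSO and 6.02, 5.95 and 6.03 in NU7441, a difference of 0.14 (SE 0.08) with groups just apart. The pairs' differences ran from 0.21 to 0.42 for Plxnb1, from 0.11 to 0.17 for Plxnb2 and from 0.09 to 0.22 for Plxnb3. In the probe sets kept for these 3 genes replicate 3 was the highest of each group. Being higher in all 3 pairs was seen in 15 of 53 members, or 28.3%, against 16.0% of all genes, and being lower in all 3 in 6, against 16.7%. This count within pairs was added after the data were examined.

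Met, the hepatocyte growth factor receptor, which associates with class B plexins, was at 7.43, 7.42 and 7.44 in DMSO 1 to 3 and at 7.27, 7.07 and 7.05 in NU7441 1 to 3. The NU7441 values all lay lower, by 0.30 on average (log2 difference -0.30, SE 0.08), with an adjusted p of 0.643 in limma. Of 31 measured co-receptors and cytoplasmic partners of plexins and neuropilins 14 were higher and 17 lower, with a median of -0.01. Met was the 1 gene at an unadjusted p under 0.05 in limma, or 3.23% against 6.79% of all genes. Farp2, an exchange factor bound to class A plexins, differed by 0.36 (SE 0.17), and by 0.28, 0.37 and 0.42 between arrays of the same number. Its SE with the block was 0.06. It was the 1 gene of this list that limma called with block, trend and robust prior (adjusted p = 0.0264), against 0.402 with the block alone. Of all genes 0.451% were called with block, trend and robust prior. Rnd1, a small GTPase that binds plexins, differed by -0.18 (SE 0.09).

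Of the class A plexins, partners of neuropilins, 3 of 4 were higher and none passed the test. Plxna1 was at 11.63, 11.48 and 11.69 in DMSO 1 to 3 and at 11.59, 11.53 and 11.55 in NU7441 1 to 3, a difference of -0.04 (SE 0.08), with -0.05 (SE 0.07) from its second probe set. Plxna2 was at 9.53, 9.30 and 9.45 in DMSO and 9.74, 9.67 and 9.49 in NU7441, where only NU7441 3 reached into the DMSO range. Its difference was 0.21 (SE 0.09) with an adjusted p of 0.755 in limma. Plxna3 differed by 0.05, Plxna4 by 0.07 (SE 0.15) and Plxna4os1 by 0.09. Whether the counting of signal keeps Plxna4 and its antisense RNA apart depends on the strand of the probes, which was not examined here.

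Plxnc1, the receptor of Sema7a, and Plxnd1, that of Sema3e, were lowest in replicate 3 of each group. Plxnc1 was at 9.00, 9.00 and 8.50 in DMSO 1 to 3 and 8.95, 8.81 and 8.31 in NU7441 1 to 3, a difference of -0.14 (SE 0.20). Plxnd1 ran from 10.31 to 10.78 in DMSO and from 10.23 to 10.61 in NU7441, a difference of -0.07 (SE 0.14).

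The neuropilins did not differ beyond their spread. Nrp1, the co-receptor of Sema3a and of vascular endothelial growth factor, was at 9.33, 9.16 and 9.03 in DMSO 1 to 3 and at 9.21, 9.08 and 9.03 in NU7441 1 to 3, a difference of -0.06 (SE 0.10, 95% interval -0.29 to 0.16). Nrp2, the co-receptor of Sema3f, was at 11.26, 11.10 and 11.43 in DMSO and 11.31, 11.28 and 11.43 in NU7441, a difference of 0.08 (SE 0.10, 95% interval -0.15 to 0.31). In both genes the groups overlapped, and replicate 3 was lowest for Nrp1 and highest for Nrp2 in each group.

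**Figure D3:**
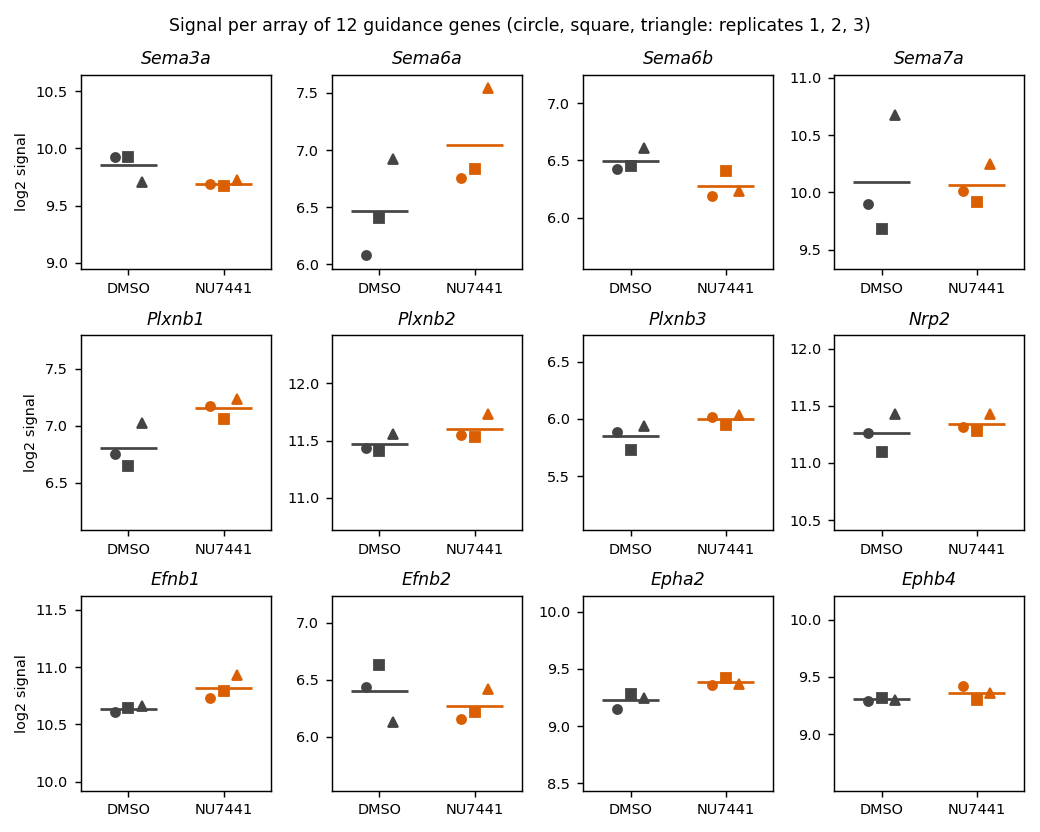
Log2 signal of 12 members in each array, with DMSO in grey, NU7441 in orange, replicates 1, 2 and 3 as circle, square and triangle, and the group mean as a line; every panel spans the same range of log2 units. The groups lie apart in Sema6b, Plxnb1, Plxnb3, Efnb1 and Epha2 and overlap in the other 7 genes. The triangles lie above the other symbols of their group in Sema6a, Sema7a, Plxnb1, Plxnb2, Plxnb3, Nrp2 and Efnb1.

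Ephrins were higher with NU7441 in 7 of 8 genes, with a median of 0.05. Efnb1, the transmembrane ephrin whose loss causes craniofrontonasal malformations, was at 10.61, 10.64 and 10.66 in DMSO 1 to 3 and at 10.73, 10.79 and 10.93 in NU7441 1 to 3. The DMSO values lay close together and below all NU7441 values. The difference was 0.18 (SE 0.07, 95% interval 0.01 to 0.35), with an unadjusted p of 0.0448 and an adjusted p of 0.732 in limma. Efnb2, the partner of EphB4, was at 6.44, 6.63 and 6.13 in DMSO and 6.16, 6.22 and 6.42 in NU7441. Its replicates disagreed: numbers 1 and 2 were lower with NU7441 and number 3 higher, for a difference of -0.13 (SE 0.14). Efnb3 differed by 0.04 (SE 0.08).

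The lipid-anchored ephrin-A genes were all 5 higher, none of them past the test. Efna4 was at 8.24, 8.30 and 8.08 in DMSO 1 to 3 and at 8.36, 8.36 and 8.35 in NU7441 1 to 3, groups that did not overlap, with a difference of 0.15 (SE 0.08). Efna3 was at 7.10, 7.12 and 7.27 in DMSO and 7.20, 7.29 and 7.74 in NU7441, where NU7441 3 stood far above the rest. Its difference, 0.24 (SE 0.14), was 0.08 without NU7441 3. Efna2, studied in the contact between osteoclasts and osteoblasts, was between 8.73 and 8.87 in all 6 arrays, a difference of 0.04 (SE 0.07). Efna5, at 10.02, 9.80 and 9.73 in DMSO and 10.05, 9.87 and 9.70 in NU7441, differed by 0.02 (SE 0.11), with arrays of the same number close to each other. Efna1 differed by 0.07 (SE 0.08).

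Among the receptors of ephrin-B, Ephb4 was nearly constant. It was at 9.29, 9.32 and 9.30 in DMSO 1 to 3 and at 9.42, 9.30 and 9.36 in NU7441 1 to 3, a difference of 0.06 (SE 0.06, 95% interval -0.09 to 0.21). Ephb3 was at 9.61, 9.77 and 9.50 in DMSO and 9.80, 9.72 and 9.63 in NU7441, overlapping values with a difference of 0.09 (SE 0.09). Ephb1, in the dimmer part of the array, was at 5.78, 5.74 and 5.86 in DMSO and 5.92, 5.92 and 6.08 in NU7441. Its groups lay apart, with a difference of 0.18 (SE 0.08) and an adjusted p of 0.733 in limma, and its second probe set differed by 0.13 (SE 0.08) with overlapping groups. Ephb6, which lacks kinase activity, differed by 0.09 (SE 0.08). All 4 measured EphB genes were thus higher, by 0.06 to 0.18.

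Of the EphA receptors 6 of 9 were higher and 3 lower. Epha2, studied with Efna2 in bone, was at 9.15, 9.28 and 9.25 in DMSO 1 to 3 and at 9.36, 9.42 and 9.37 in NU7441 1 to 3. All NU7441 values lay above the DMSO values, and the difference was 0.15 (SE 0.07) with an adjusted p of 0.740 in limma. Epha3 had the largest difference of the Eph receptors, at 6.15, 6.19 and 6.83 in DMSO and 5.91, 6.03 and 6.28 in NU7441. The high DMSO 3 made up much of the difference of -0.32 (SE 0.19), which was -0.10 without that array. Epha4, which binds ephrins of both classes, was at 8.01, 7.98 and 7.98 in DMSO and 7.96, 7.97 and 7.90 in NU7441. These groups did not overlap, yet the difference was only -0.05 (SE 0.06), with a 95% interval from -0.19 to 0.10. The other 6, Epha1, Epha5, Epha6, Epha7, Epha8 and Epha10, all with means below the median of all genes, differed by between -0.13 and 0.17.

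Of 28 partners of ephrins and Eph receptors 16 were higher and 12 lower, with a median of 0.00 and 0 called by limma. At an unadjusted p under 0.05 there were 3, or 10.7%, against 6.79% of all genes. Rasa1, the Ras GTPase-activating protein that binds activated EphB receptors, was at 11.23, 11.04 and 11.22 in DMSO 1 to 3 and at 10.86, 10.79 and 10.72 in NU7441 1 to 3. Every NU7441 value lay below every DMSO value, with a difference of -0.38 (SE 0.08) and an adjusted p of 0.606 in limma. With the block alone the adjusted p in limma was 0.465, and with block, trend and robust prior it was 0.0398, the 1 call among these partners. The latter fit called 0.451% of all genes. Ptpro, a phosphatase of Eph receptors, differed by 0.24 (SE 0.08) and Grip1, a scaffold of ephrin-B, by 0.25 (SE 0.08), both with means below the median of all genes. Of 24 netrin, Slit and other guidance genes 16 were higher and 8 lower, with a median of 0.07 and none at an unadjusted p under 0.05. Neo1, a netrin and RGM receptor, differed by 0.16 (SE 0.08), Dscam by 0.16 (SE 0.08) and Srgap2, which acts downstream of Robo receptors, by 0.17 (SE 0.09).

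Over the members, replicate 3 of each group stood apart from the others. The correlation of the deviations from the group means was 0.50, 0.33 and 0.59 for the numbers 1, 2 and 3 across the 53 genes, which are not independent replicates. It was 0.29 for DMSO 2 with NU7441 1 and 0.23 for DMSO 1 with NU7441 2, and between -0.51 and -0.39 for number 3 with another number. The deviations of a gene cancel within each group, so these values are tied to the same-number ones and are no separate evidence of pairing. In 25 of 53 members, or 47.2%, replicate 3 was the highest of each group or the lowest of each, as in 30.6% of all genes. Sema5a, Sema3c, Sema6a and Sema7a had the widest spread within groups, with SDs of 0.46, 0.44, 0.43 and 0.39 against a median of 0.11 over all genes. With the replicate number as a block, limma again called 0 members, where it called 0.0% of all genes. At an unadjusted p under 0.05 that fit gave 6 members, or 11.3%, against 9.37% of all genes: Plxnb1, Sema6a, Epha3, Ephb1, Efnb1 and Efna3. The SE of Plxnb1 was then 0.07 and that of Epha3 0.10.

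**Figure D4:**
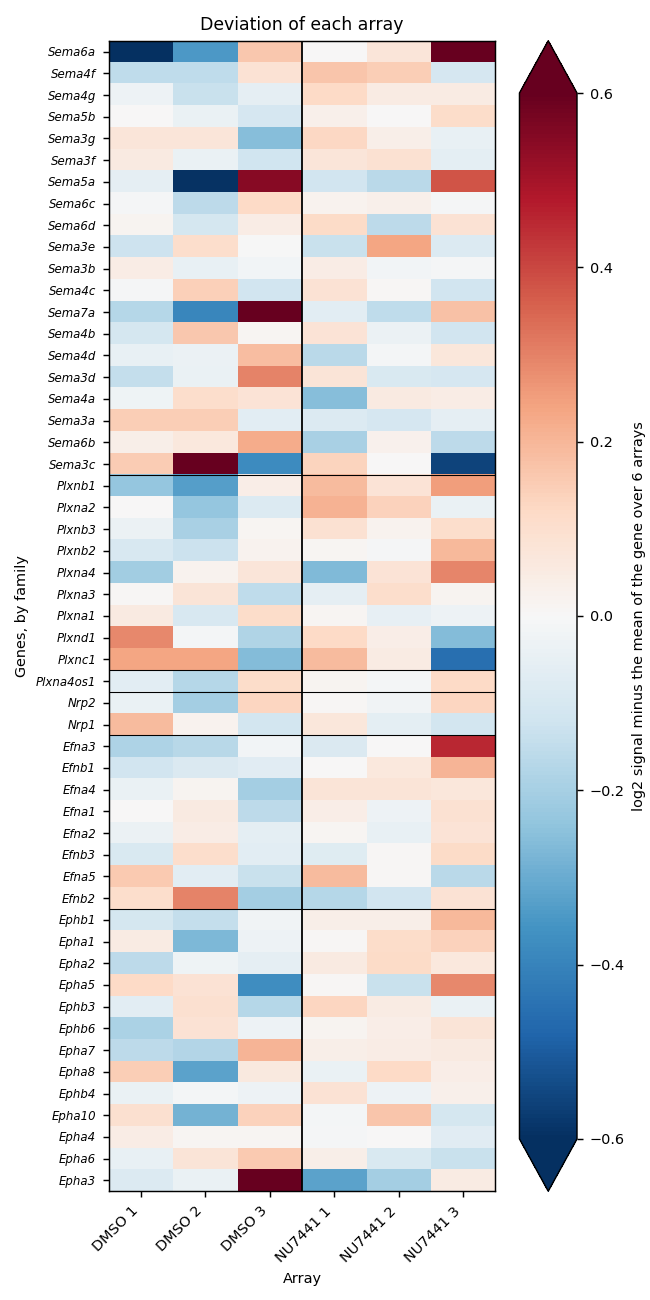
Log2 signal of each of the 53 genes in each array minus the gene's mean over the 6 arrays, from blue (lower) to red (higher), with genes by family and the groups split by the vertical line; colours are capped at 0.6. Sema6a goes from 6.08 in DMSO 1 to 7.54 in NU7441 3, and in Sema5a and Sema7a the arrays numbered 3 are red and in Sema3c blue in each group.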

How the data were processed

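Total RNA of whole MC3T3-E1 cells was purified on columns, labelled with biotin and run on Affymetrix arrays, per the labels' protocols. In the deposited table each probe set has a log2 signal for each of the 6 arrays. The log2 scale was read from the range of the values, and how the authors summarised and normalized them is not given in the sources. No further scaling was applied. Of 41345 probe sets 23521 had 1 symbol in the platform annotation, 1814 several and 16010 none. Symbols were checked by Entrez number against RefSeq (GRCm38.p6), which held 23328 of them and changed 0 symbols. Columns of other samples numbered 0.

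A linear model with the group as its single term was fitted to all 22180 genes (limma 3.58.1, R 4.3.3, two-sided, moderated by eBayes). Its p-values were adjusted by Benjamini and Hochberg over all these genes, with a threshold of 0.05. The model was also run on simulated arrays with independent noise, no deviations shared by replicate number, and planted 2-fold changes. That run does not show what the fit can find among the smaller differences of the members. Values per array are given for members with an unadjusted p under 0.05, those known from bone and the largest difference in each family; the values per array of other members (Plxna2, Plxnb3, Plxnc1, Sema3c, Sema4g, Sema5a, Efna4 and Ephb1) were added after they were seen. Up to 3 genes with the smallest p were named from each partner list. The members, the lists and the alternatives were chosen with earlier results of these data known.

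Over all genes, deviations from the group means correlated at 0.15, 0.17 and 0.34 for the same replicate number, above 0.1 in every pair, and between -0.25 and 0.09 for different numbers. Deviations of a gene cancel within each group, so the values for different numbers are tied to the same-number values and add no separate evidence. By the same-number values the numbers may pair the samples, but the main fit did not use them. Such a pairing comes from the data and from no label, and the replicate block was an alternative. The p-values, SEs and intervals given without mention of a block come from the fit without pairing. The number of arrays limits the precision. Figures were drawn with matplotlib 3.10.9.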

Additional observations from a re-analysis of the deposited data

How the results depend on the processing

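Under none of the 15 alternatives did limma call any of the 53 members. The replicate block, the trend and robust prior and the cuts by brightness leave a member's difference as it is, so they could not reverse its sign. Averaging probe sets could change it only in the members with several probe sets. Of the 22 members named by rule 14 kept their sign under every alternative that held them, but 4 of these (Sema6a, Sema6b, Epha3 and Efnb2) were too dim for the brighter 50 percent. The other 8 had a difference below 0.10 in size: Sema3b was -0.01 with median centring, Sema3e -0.022 with quantile normalization and -0.007 with median centring, and Sema7a 0.005 with quantile normalization. With 1 array left out, the ranges that cross 0 were -0.066 to 0.11 for Efna5, -0.14 to 0.014 for Nrp1, -0.005 to 0.16 for Nrp2, -0.11 to 0.003 for Plxna1, -0.008 to 0.038 for Sema3b, -0.10 to 0.086 for Sema3e, -0.12 to 0.002 for Sema4d and -0.23 to 0.27 for Sema7a.

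The 2 members higher at an unadjusted p under 0.05 (3.49% of all genes tested were so) became 5 with the replicate block (4.71%), 7 when the block was joined to an intensity trend and a robust prior (4.53%), and 4 with the trend and prior alone (2.94%). Quantile normalization gave 5 (3.03%) and median centring 1 (2.48%). Testing the brighter 75 percent of genes gave 4 (3.22%), and the brighter 50 percent also 4 (2.61%). The 1 lower (3.3% of all genes) became 2 with the trend and robust prior (3.86%), 4 with block, trend and robust prior (6.66%), and 0 with array weights (3.36%) or in the brighter 50 percent (5.8%). With the block it was Epha3 in place of Sema6b, whose p was then 0.0522. Without 1 array the counts ran from 1 to 4 higher (2.74% to 3.85% of all genes) and from 0 to 1 lower (2.49% to 4.02%). Of the members whose groups do not overlap, 5 higher and 1 lower were in the brighter 50 percent, which holds 31 members (4.74% and 10.0% of all genes there), and quantile normalization gave 1 lower (5.96%). With 1 array left out, where fewer values must lie apart, 10 to 17 were higher (10.4% to 12.1% of all genes) and 2 to 6 lower (10.5% to 13.4%). The plexins' median ran from 0.051 to 0.14 without 1 array, and that of the Eph receptors was 0.052 with array weights. The block alone gave limma 0 calls over all genes. Block, trend and robust prior called 0.451% of all genes, among them Farp2, Rasa1 and 6 osteoblast markers. The cause of these shifts was not tested. In dim probe sets low signal limits what a difference can show.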
